A study of Mus musculus with 6 samples.

Results

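The genes described here encode the proteins of the mitochondrial ribosome. They were taken from the deposited gene table as every protein-coding row whose symbol starts with Mrpl or Mrps followed by a number, which gave 78 of the 57180 genes listed: 49 named for the large subunit (Mrpl) and 29 named for the small subunit (Mrps). The rule reads the symbol only. RNA-seq was run on primary hepatocytes from male mice of 2 genotypes. The LOXP group (3 libraries) came from STING floxed control mice, and the KO group (3 libraries, STINGLKO) came from STING floxed mice crossed with Albumin-Cre mice, in which the albumin promoter drives Cre in hepatocytes. Mice in the study were of C57BL/6 background and 8 to 10 weeks old.

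Both groups were treated alike: the cells were cultured with 0.1 µM dexamethasone and serum and received 0.1 mM palmitic acid for 24 h, which the labels describe as a culture model of steatohepatitis. No library without palmitate was analysed here, so each comparison is between genotypes under palmitate. The sources used here do not say whether the 3 libraries of a group came from separate mice, so p-values measure the spread between these libraries, which may be technical. The libraries held 14726983 to 18536985 counted reads. Sting1, the targeted gene, had 19, 16 and 23 reads in LOXP and 24, 23 and 15 in KO, with no lower level in the libraries labelled KO (log2 fold change -0.08, SE 0.3, exact two-sided permutation p = 1), so the genotype is taken from the labels. Which exons the floxed allele loses is not given in the sources used here, so a count over the whole gene need not show the deletion, and the study's own PCR check of it was not analysed here. The hepatocyte markers were abundant in every library, with a summed level of 23720 to 25130 normalised CPM (counts scaled to the library total and TMM factors) in LOXP and 19840 to 20560 in KO, and 7 of the 9 tested were lower in KO. Macrophage markers summed to 144 to 158 CPM in LOXP and 92.0 to 109 in KO (2 of 9 tested lower), and cholangiocyte markers to 268 to 327 and 133 to 158 (3 of 4 tested lower, 1 higher). The lower macrophage markers were Cd68 (mean 78.7 CPM in LOXP, 43.1 in KO) and Mpeg1 (29.4 and 18.3). The other tested macrophage markers, with log2 fold changes from -0.34 to 0.18, were not called. The lower cholangiocyte markers were Cldn4 (205 and 100 CPM), Sox9 (56.1 and 30.6) and Spp1 (38.9 and 9.47). Krt19 (2.10 and 3.72) was higher, and Krt7 and Epcam were too low to test. Endothelial markers summed to 157 to 177 CPM in LOXP and 143 to 157 in KO (1 of 7 tested lower). Stellate markers summed to 97.5 to 107 and 94.3 to 104 (0 of 7 tested lower or higher). By the test described below, 11.6% of all genes were called lower and 11.5% higher. The 7 lymphocyte and neutrophil markers summed to 0 to 0.42 CPM in LOXP and 0 in KO, with Cd3e, Nkg7 and Ly6g at 0 in all libraries. S100a8 had 4 reads in LOXP replicate 2, and S100a9 had 2 in each of LOXP replicates 1 and 2. Log2 fold changes ran from -1.24 (Cps1) to 0.02 (Cyp2e1) among hepatocyte markers and from -2.04 (Spp1) to 0.82 (Krt19) among cholangiocyte markers. In bulk RNA, fewer cells of a type and less RNA of a marker per cell cannot be told apart, and the part of these shifts in the results was not tested.

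Mitochondrial ribosomes translate the few messenger RNAs made from mitochondrial DNA, all of which encode hydrophobic subunits of the respiratory chain and ATP synthase. Their rRNAs are transcribed from the mitochondrial genome, but all of their proteins are made in the cytosol from nuclear genes and imported, so assembly draws on both genomes. Many of the proteins descend from bacterial ribosomal proteins, and others are found only in mitochondria, where most occupy positions of their own in a particle with less rRNA than the bacterial one. Hepatocytes are rich in mitochondria and depend on the respiratory chain so built to oxidise fatty acids.

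In these libraries the messenger RNAs of the mitoribosomal proteins stayed close to level between genotypes. The rRNAs of the mitoribosome were lower in KO by about 1 on the log2 scale. Protein levels were not analysed here. Of the 78 members, 8 passed the test (10.3%), against a background of 23.1% of all 14151 genes tested. Mrps27, Mrpl12 and Mrps7 were higher in KO, and Mrps18a, Mrps2, Mrpl43, Mrpl2 and Mrps34 were lower. A gene was called when the edgeR quasi-likelihood test gave a Benjamini-Hochberg adjusted p under 0.05 over all genes tested. By direction, 3 members were called higher against 11.5% of all genes, and 5 were called lower against 11.6%. The higher count was 1 without LOXP replicate 1, LOXP replicate 2 or KO replicate 2, and 7 when libraries were scaled by their totals only; the lower count was 3 without LOXP replicate 3, KO replicate 2 or KO replicate 3. The mitochondrial rRNAs mt-Rnr1 and mt-Rnr2 had log2 fold changes of -1.10 and -0.95.

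Every member was transcribed at a measurable level. All 78 passed the filter on low counts, with 88 to 3300 reads in any one library, and all had a mean above 1 FPKM (fragments scaled to gene length and library depth, the authors' unit, used here to compare levels between genes). The mean over the 6 libraries ran from 1.34 FPKM for Mrpl48 to 69.8 FPKM for Mrpl12, with a median of 11.2 FPKM. The large-subunit genes had a median of 12.9 FPKM and the small-subunit genes 9.78 FPKM. Summed FPKM of the large-subunit genes was 2.33 to 2.46 times that of the small-subunit genes in each of the 6 libraries, and the LOXP (2.35 to 2.43) and KO (2.33 to 2.46) ranges overlapped. The length implied by counts and FPKM ran from 607 to 13836 bases over the members. For Mrpl17 it was 9967 bases, longer than the annotated span of the gene. The same held for other members, among them Mrps17 and the called genes Mrps2 (5153 bases), Mrps34 (3658) and Mrpl43 (1913). FPKM levels between genes and subunits are therefore uncertain. Mrps17, at 13836 bases, had 29.2 to 37.1 CPM over the 6 libraries. Mrps28, at 783 bases, had 23.4 to 29.6 CPM.

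**Figure D1:**
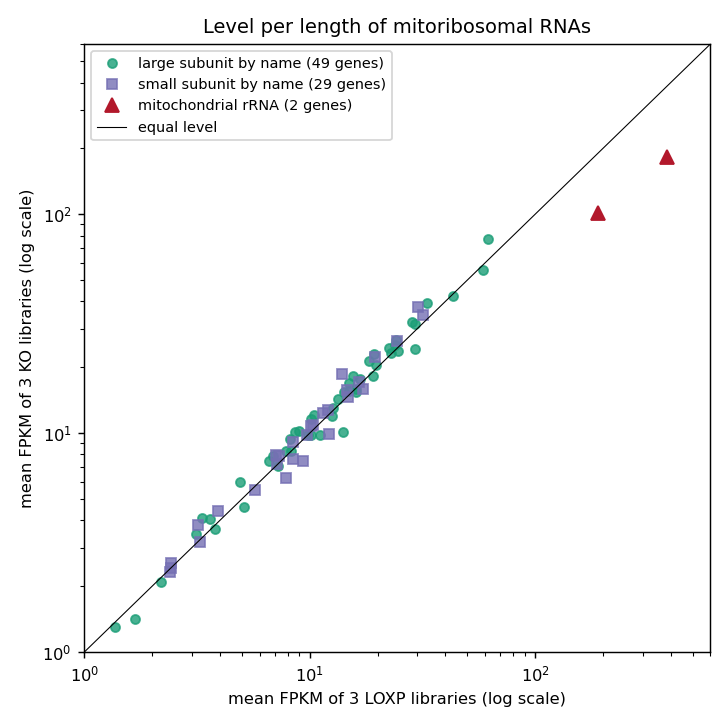
Mean FPKM of 3 LOXP libraries (x axis, log scale) against mean FPKM of 3 KO libraries (y axis, log scale) for 49 large-subunit genes (circles), 29 small-subunit genes (squares) and 2 mitochondrial rRNAs (triangles), with the line of equal level. The protein genes lie along the line, from Mrpl48 (1.37 FPKM in LOXP, 1.3 in KO) to Mrpl12 (62.1 FPKM in LOXP, 77.4 in KO). Both rRNAs lie below the line.

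The most abundant large-subunit genes were Mrpl12, which encodes the protein of the flexible stalk that recruits translation factors, at 69.8 FPKM, Mrpl34 at 57.1 FPKM, Mrpl38 at 42.9 FPKM and Mrpl10, whose protein anchors the stalk, at 36.2 FPKM. The most abundant genes named for the small subunit were Mrps7 at 34.0 FPKM, Mrps28 at 33.3 FPKM, Mrps18b at 25.4 FPKM and Mrps15 at 20.9 FPKM. Mrpl34, Mrpl38, Mrps28, Mrps18b and Mrps15 had log2 fold changes of -0.11, -0.06, 0.09, 0.07 and 0.18 between the groups, and none passed the test. At the low end, Mrpl48 (1.34 FPKM), Mrpl23 (1.55 FPKM), Mrps17 (2.37 FPKM) and Mrps35 (2.42 FPKM) were not called either. Both the most and the least abundant genes are ranked by FPKM, so the ranks depend on the implied lengths. The Mrpl23 level is uncertain, because its processed pseudogene copy Mrpl23-ps1 held 208 to 277 reads a library while Mrpl23, which encodes a protein at the exit of the nascent chain tunnel, held 127 to 183, and near-identical copies can exchange reads. Mrps36, Mrpl48 and Mrpl27 likewise have counted pseudogene copies. Mrps36-ps1 held 36 to 71 reads and Mrps36-ps2 14 to 39, against 88 to 126 for Mrps36. Mrpl48-ps held 65 to 98 against 194 to 278 for Mrpl48, and Mrpl27-ps 21 to 43 against 279 to 395 for Mrpl27.

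The changes among members were small. Over the 78 genes the log2 fold change (KO minus LOXP) ranged from -0.52 to 0.39 with a median of 0.04, beside a median of -0.00 over all genes tested. The median size of the change regardless of sign was 0.10 in members and 0.21 in all genes. It was 0.07 in cytosolic ribosomal protein genes, 0.09 in nuclear respiratory chain subunits and 0.17 in mitoribosome assembly factors. A small size was therefore not particular to the members. The fitted value was above 0 for 46 members and below 0 for 32, and scaling by library totals only gave 49 above 0. None of the 78 met the authors' 3 criteria together (log2 fold change beyond 1 in size, adjusted p under 0.05 and mean above 1 FPKM in a group), which 2.05% of all genes met. The 95% interval of the log2 fold change lay within 1 of zero for all 78 members, and within 0.5 of zero for 65 of the 70 that were not called. Counting by groups alone, the 3 KO values and the 3 LOXP values did not overlap for 19 members (24.4%; 12 with KO higher, 7 with KO lower), against a background of 40.7% of all genes.

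The subunits did not part in one direction. Of the 49 large-subunit genes 1 was called higher and 2 lower (6.12% called), with a median log2 fold change of 0.05. Of the 29 small-subunit genes 2 were called higher and 3 lower (17.2% called), with a median of 0.03. Both shares are below the 23.1% called over all genes tested. The difference between the subunits was not tested. The summed level of the large-subunit genes was 2342, 2301 and 2380 CPM in LOXP and 2398, 2462 and 2375 in KO. That of the small-subunit genes was 1095, 1102 and 1116 in LOXP and 1105, 1160 and 1083 in KO. In both sums the ranges of the groups overlapped, and the means differed by a ratio of 1.03 for the large and 1.01 for the small subunit.

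Names and structure disagree for a few genes. Mrps18a and Mrps30 carry small-subunit names but their proteins sit in the large subunit, and Mrps36 encodes a component of the alpha-ketoglutarate dehydrogenase complex. Placed by structure, 4 of 51 large-subunit genes (7.84%) and 4 of 26 small-subunit genes (15.4%) were called, against 23.1% of all genes. Their medians were 0.05 and 0.03. Mrps30 had a log2 fold change of 0.05 (SE 0.0687) and Mrps36 of 0.04 (SE 0.136), neither called. Divided by descent, 5 of the 48 members with a bacterial homolog were called (10.4%, 2 higher, 3 lower, median 0.03). Of the 29 mitochondria-specific members 3 were called (10.3%, 1 higher, 2 lower, median 0.07). Both shares are again below the 23.1% of all genes, and Mrps36 is in neither group.

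**Figure D2:**
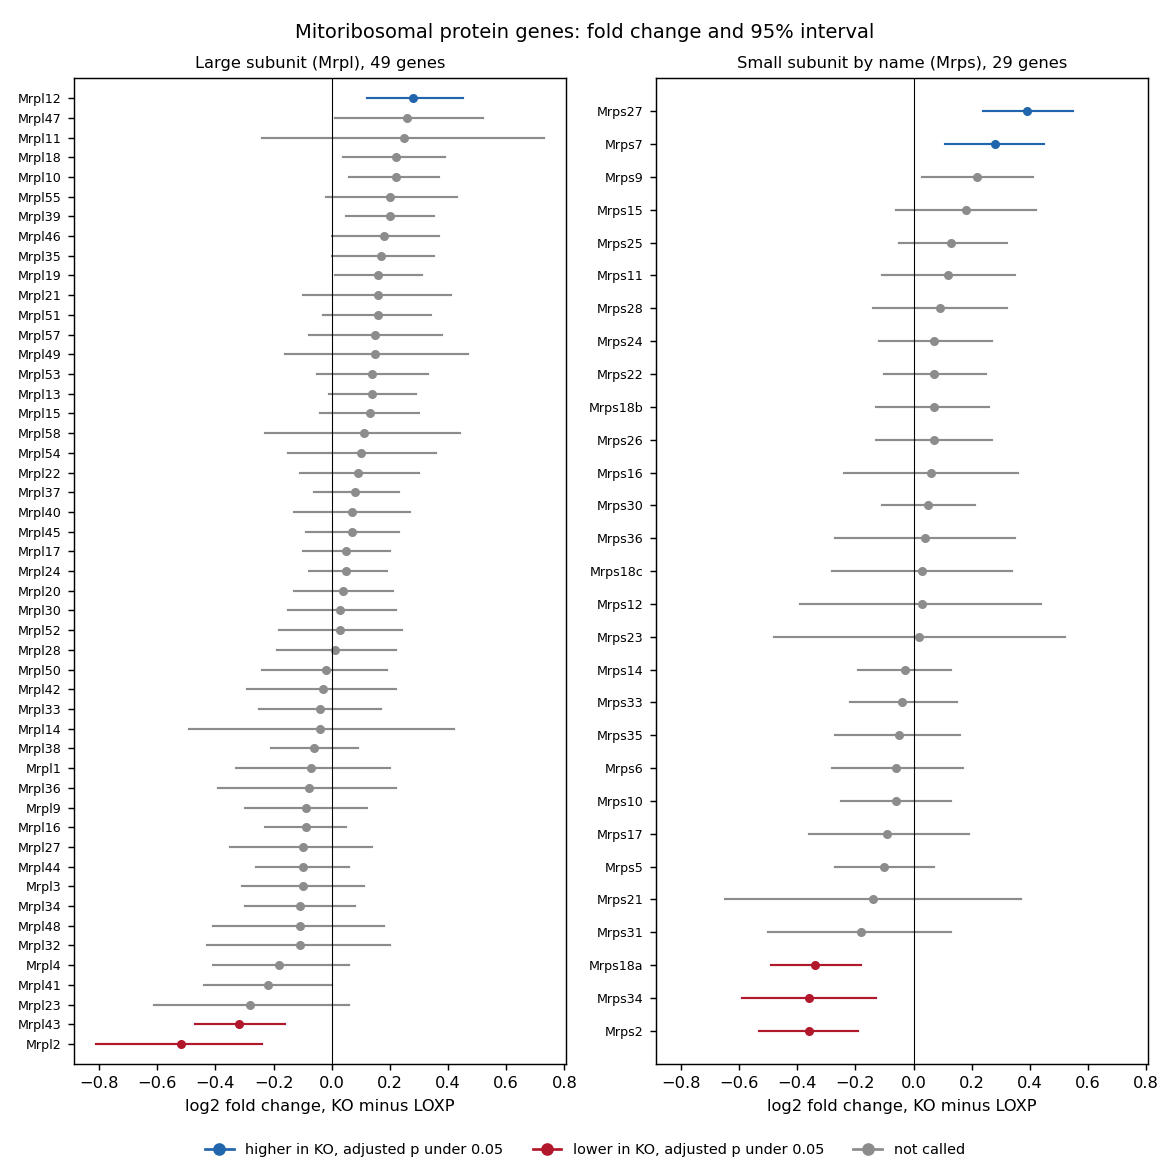
Fitted log2 fold change, KO minus LOXP (x axis), of each of 49 large-subunit genes (left) and 29 genes named for the small subunit (right), with points for the estimate and lines for the 95% interval. Blue marks the 3 genes called higher, red the 5 called lower and grey the 70 not called, whose values run from -0.28 to 0.26.

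Among the called genes, Mrps27 (chromosome 13, 99481294 to 99552070 in GRCm39) encodes a small-subunit protein with pentatricopeptide repeats, a motif typical of organelle RNA-binding proteins. Its level was 32.1, 31.0 and 33.4 CPM in LOXP and 42.6, 43.0 and 41.1 CPM in KO. Every KO library was above every LOXP library, and the spread within each group was small. The fitted log2 fold change was 0.39 (SE 0.0672, edgeR adjusted p = 0.00442), or 1.31-fold.

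Mrpl12, the stalk protein, is also known for binding the mitochondrial RNA polymerase. Its level was 114, 112 and 125 CPM in LOXP and 132, 150 and 145 CPM in KO. The groups did not overlap, though the highest LOXP and the lowest KO library lay close together. The log2 fold change was 0.28 (SE 0.0719, edgeR adjusted p = 0.0238), and the call was lost without LOXP replicate 1, LOXP replicate 2, KO replicate 2 or KO replicate 3 (edgeR adjusted p = 0.0541, 0.0674, 0.0988 and 0.0748). Mrpl10, its partner at the stalk base, had 68.5, 73.8 and 70.7 CPM in LOXP and 77.3, 86.4 and 83.4 CPM in KO, with groups that did not overlap, a log2 fold change of 0.22 and an edgeR adjusted p of 0.056 that missed the threshold.

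Mrps7, whose bacterial counterpart starts assembly of the head of the small subunit, had 68.7, 69.5 and 79.6 CPM in LOXP and 85.8, 90.2 and 89.0 CPM in KO. All 3 KO libraries exceeded the highest LOXP library. The log2 fold change was 0.28 (SE 0.0752, edgeR adjusted p = 0.0282), and leaving out any library except LOXP replicate 3 took the adjusted p to between 0.0548 and 0.0948. Its span overlaps 127 bases of Gga3 (2543 reads in all, log2 fold change 0.20) and 119 bases of Mif4gd (1672 reads, 0.06). Mrps7 itself held 7835 reads.

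On the lower side, Mrps18a (chromosome 17, 46421912 to 46439836 in GRCm39), one of a trio of mitochondrial relatives of bacterial S18, had 64.7, 68.5 and 66.8 CPM in LOXP and 50.0, 54.8 and 53.5 CPM in KO. The groups were well apart. Its log2 fold change was -0.34 (SE 0.067, edgeR adjusted p = 0.00869). Its relatives Mrps18b and Mrps18c, the latter named here after its value was seen, had log2 fold changes of 0.07 and 0.03 and were not called.

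Mrps2 (chromosome 2, 28358078 to 28361190), a small-subunit protein with a bacterial homolog, had 50.0, 47.1 and 49.0 CPM in LOXP and 40.9, 37.0 and 36.2 CPM in KO. All KO libraries were below all LOXP libraries, with a log2 fold change of -0.36 (SE 0.0735, edgeR adjusted p = 0.01).

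Mrpl43 (chromosome 19, 44993268 to 44994881), a large-subunit protein without a bacterial homolog, had 55.2, 59.5 and 56.6 CPM in LOXP and 44.6, 47.6 and 45.3 CPM in KO. The groups did not overlap, and the log2 fold change was -0.32 (SE 0.0669, edgeR adjusted p = 0.0112). In the table its span overlaps 780 bases of Twnk, which held 2976 reads in all against 4944 for Mrpl43, and Twnk had a log2 fold change of 0.10 (edgeR adjusted p = 0.5).

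Mrpl2 (chromosome 17, 46957155 to 46961065), whose bacterial counterpart lies by the peptidyl transferase centre, showed the lowest log2 fold change of the members. Its level was 45.2, 32.6 and 38.9 CPM in LOXP and 29.8, 26.2 and 25.3 CPM in KO. The KO values were close to each other and the LOXP values spread, with LOXP replicate 2 near the highest KO library. The log2 fold change was -0.52 (SE 0.125, edgeR adjusted p = 0.0188), and the call was lost without LOXP replicate 3, KO replicate 2 or KO replicate 3 (edgeR adjusted p = 0.0517, 0.0679 and 0.0689).

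Mrps34 (chromosome 17, 25114090 to 25116476), a mitochondria-specific small-subunit protein, had 25.6, 32.5 and 29.3 CPM in LOXP and 22.5, 22.3 and 23.2 CPM in KO. The groups did not overlap, with LOXP replicate 1 nearest to KO. The log2 fold change was -0.36 (SE 0.0994, edgeR adjusted p = 0.0326). It was the least firm of the calls, lost when any library except LOXP replicate 1 was left out (edgeR adjusted p up to 0.102). The whole gene, 2387 bases, lies inside the span of Mapk8ip3, which held 6015 reads against 2480 and had a log2 fold change of -0.03. It also overlaps 1003 bases of Nme3, which held 95 reads and was called lower (-1.28, edgeR adjusted p = 0.0347). In total 20 members overlap a gene with more than 10% of their reads, and whether counting used strand is not given in the sources used here, so such reads could be shared.

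Of the lower calls, Mrps18a, Mrpl2 and Mrps34 are on chromosome 17, which carries 8 members and on which 12.2% of the 729 genes tested were called lower. The members lie on 17 chromosomes in all.

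**Figure D3:**
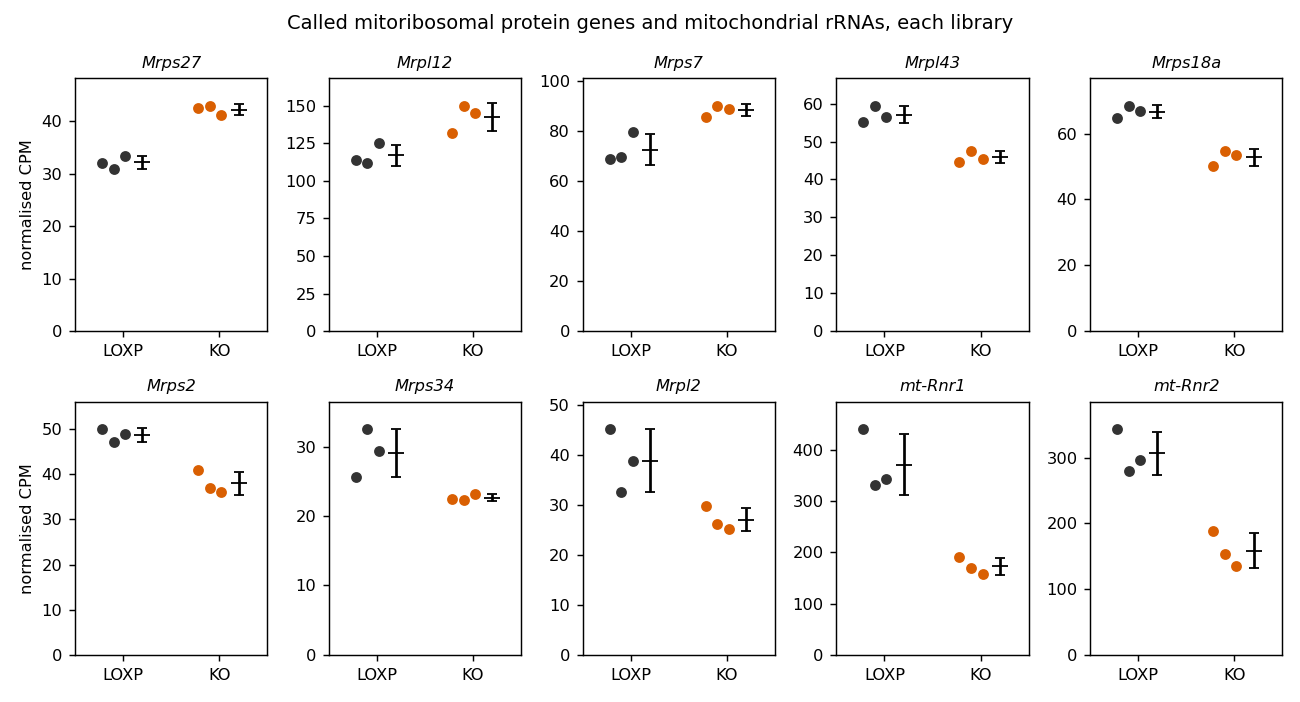
Normalised CPM (y axis, from 0) in each of the 3 LOXP and 3 KO libraries (points), with the mean and SD beside them, for the 8 called members and the 2 mitochondrial rRNAs. In each panel the points of the groups do not overlap, and the gap is widest relative to the level for mt-Rnr1 and mt-Rnr2.

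Members also differed in how steady they were within a group. The median standard deviation between libraries of a group was 0.108 on the log2 CPM scale, and 5 members, named here after their values were seen, exceeded 0.25: Mrps23 (0.386), Mrps21 (0.375), Mrpl11 (0.35), Mrpl14 (0.329) and Mrps12 (0.298). Mrps23 had 49.1, 39.2 and 24.4 CPM in LOXP and 40.7, 40.7 and 32.7 CPM in KO, so its LOXP libraries alone spanned the KO range. Mrpl11 had 28.4, 18.9 and 22.6 CPM in LOXP and 37.2, 23.3 and 22.8 CPM in KO, with 1 high KO library. For these genes the intervals were wide, reaching from -0.48 to 0.52 for Mrps23 and from -0.24 to 0.73 for Mrpl11, so a moderate difference could not be seen. Mrpl58, a peptidyl-tRNA hydrolase that rescues stalled mitoribosomes, had a log2 fold change of 0.11 with an interval from -0.23 to 0.44. Mrpl23 had -0.28 with an interval from -0.61 to 0.06.

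The rRNAs of the same particle moved apart from the messenger RNAs of its proteins. Mt-Rnr1, the rRNA of the small subunit (mitochondrial chromosome, 70 to 1024 in GRCm39), had 440, 331 and 342 CPM in LOXP and 191, 170 and 158 CPM in KO. Mt-Rnr2, the rRNA of the large subunit (1094 to 2675), had 343, 280 and 296 CPM in LOXP and 188, 153 and 135 CPM in KO. For both, the highest KO library was far below the lowest LOXP library.

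The log2 fold change was -1.10 for mt-Rnr1 (SE 0.116, edgeR adjusted p = 4.62e-04) and -0.95 for mt-Rnr2 (SE 0.123, edgeR adjusted p = 0.00123). The exact two-sided permutation p was 0.1 for each, the smallest that 3 libraries against 3 allow. Set against the rRNA, the summed CPM of the members was 4.39 to 5.57 times that of the 2 rRNAs in LOXP and 9.25 to 11.8 times in KO. The summed CPM of all members was itself 3402 to 3496 in LOXP and 3458 to 3622 in KO.

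The rRNAs made up only 0.0593 to 0.0781% of counted reads in LOXP and 0.0300 to 0.0383% in KO. How rRNA was depleted, or messenger RNA selected, before sequencing is not given in the sources used here, and these levels are what remained after it. Other RNAs that differ in their tails from messenger RNA are set beside them. The 22 mitochondrial tRNA genes together had 23.4 to 28.6 CPM in LOXP and 18.0 to 19.1 in KO. The nuclear genes of type rRNA had 33.6 to 34.3 CPM in LOXP and 18.8 to 42.6 in KO, and small nucleolar RNAs 42.9 to 47.1 and 43.5 to 51.8. Whether library preparation had a part in the rRNA result was not tested.

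The 13 messenger RNAs of the mitochondrial chromosome, the substrates of these ribosomes, had a median log2 fold change of 0.04. The share called was 23.1%, the same as over all genes. Of them mt-Co3 (0.46) and mt-Atp8 (0.37) were called higher, and mt-Nd6 (-1.27), which is encoded on the opposite strand from the others, was called lower. The mitochondrial chromosome as a whole took 3.96 to 4.65% of reads in LOXP and 3.86 to 4.34% in KO, with overlapping ranges.

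Other genes of mitochondrial translation are given by list. Of 5 mitoribosomal proteins under other names, Gadd45gip1, a large-subunit protein, was called higher (log2 fold change 0.32, edgeR adjusted p = 0.0218) and the list had a median of 0.06. Of 28 assembly factors, C1qbp (0.27) and Noa1 (0.28), a GTPase of mitoribosome assembly, were higher and Mettl17 (-0.51) was lower, with a median of 0.12. Of 17 translation factors the elongation factor Gfm1 was higher (0.38, edgeR adjusted p = 0.00356), none was lower, and the median was 0.01. The shares called in these lists were 20%, 10.7% and 5.88% in the order given, against 23.1% of all genes.

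The enzymes that charge mitochondrial tRNAs gave the largest share of calls among these 4 lists. Of 20 genes, 6 were called (30%, against 23.1% of all genes), and the median was 0.09. The called genes were all higher, beside 11.5% of all genes called higher. They included the synthetases Iars2 (0.27, edgeR adjusted p = 0.00682) and Yars2 (0.36, 0.0124) and Gatc (0.47, 0.0173), a subunit of the amidotransferase that makes glutaminyl-tRNA in mitochondria. The summed level of the 20 genes was 539 to 577 CPM in LOXP and 609 to 628 CPM in KO, without overlap. That of the 28 assembly factors did not overlap either, at 785 to 813 CPM in LOXP and 850 to 883 CPM in KO.

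Of 79 cytosolic ribosomal protein genes 4 were called (5.06%, against 23.1% of all genes). Of these 2 were called higher (Rpl27, 0.49, and Rpl13a, 0.32), and 2 were called lower (Rpl12, -0.30, and Rps28, -0.33), with a median of 0.02. Cytosolic ribosomal protein genes have many processed copies in the mouse genome, so their single values are uncertain. Of 79 nuclear respiratory chain subunits tested, 7 were called (8.86%), every one of them lower, beside 11.6% of all genes called lower. Those with the smallest adjusted p were the complex I subunits Ndufb9 (-0.33), Ndufa6 (-0.36) and Ndufb1 (-0.50), and the list had a median of -0.05.

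**Figure D4:**
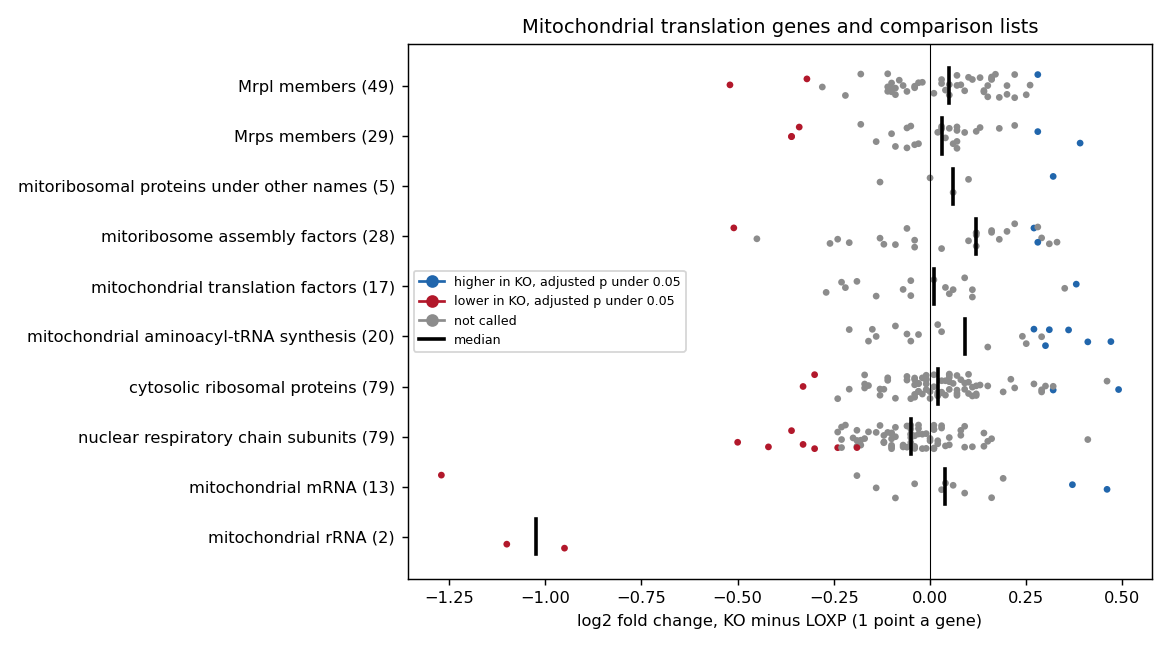
Log2 fold change, KO minus LOXP (x axis), of each tested gene (points) in the Mrpl and Mrps members and in 8 comparison lists, with the median of each list as a black bar and called genes in blue (higher) or red (lower). The lists of protein-coding genes centre near 0, with medians from -0.05 to 0.12. The 2 mitochondrial rRNAs have a median of -1.03, with mt-Nd6 of the mitochondrial messenger RNAs lower still at -1.27.

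What the members share at the level of sequence was read from RefSeq promoter windows (GRCm38.p6, 250 bases before to 50 after each start), which covered 69 of the 78 members in 75 windows. Mrpl4, Mrpl13, Mrpl15, Mrpl19, Mrpl38, Mrpl54, Mrps28, Mrps34 and Mrps35 had no entry. Motifs were matched as exact letters on either strand, and a match is a description of the letters only. CCGGAAG, the core recognised by ETS-family factors such as GABP, was in 34.7% of member windows, in 17.5% of windows of all tested protein-coding genes and in 8.86% of all windows. The YY1 motif AAGATGGCG was in 10.7%, 3.02% and 1.4% in the same order. The NRF1 motif GCGCATGC was in 10.7%, 5.15% and 2.71%.

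The remaining motifs were less particular to these genes by their shares. The SP motif GGGCGG was in 52% of member windows and 62.1% of windows of tested protein-coding genes, and the E-box CACGTG in 9.33% and 9.92%. TATAAA was in 6.67% and 7.3%, and the ERR motif TCAAGGTCA was in none of the 75 member windows and in 0.265% of windows of tested genes. The ETS letters were in 26 members, of which 1 was called higher (Mrps27) and 2 lower (Mrpl43 and Mrps18a), beside 11.5% and 11.6% of all genes, and nothing is read from these counts. The NRF1 letters were in 8 members: Mrpl9, Mrpl10, Mrpl17, Mrpl22, Mrpl32, Mrpl33, Mrpl39 and Mrps18b.

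Many members also lie head to head with another gene. Within 1000 bases of the start, 26 of the 69 members (37.7%) had a neighbour starting on the opposite strand, against 19.6% of tested protein-coding genes. The stretches below show the DNA between such starts for Mrps27 and Ptcd2, Mrpl43 and Twnk, Mrpl2 and Klc4, and Mrpl46 and Mrps11, the pair in which both genes are members, with an NRF1 match upstream of Mrpl10 for comparison. They are reference sequence read 5′ to 3′ on the member's strand. The stretches between starts end at the base before the RefSeq start of the member, and that of Mrpl10 runs from 164 to 97 bases upstream. Capitals mark the letters of the motif named on each line, on either strand.
Mrps27 to Ptcd2, chr13:99344679-99344785, plus strand, ETS in capitals: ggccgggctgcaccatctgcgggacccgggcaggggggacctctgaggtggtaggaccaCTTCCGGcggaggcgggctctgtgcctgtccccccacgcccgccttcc
Mrpl43 to Twnk, chr19:45006443-45006557, minus strand, ETS in capitals: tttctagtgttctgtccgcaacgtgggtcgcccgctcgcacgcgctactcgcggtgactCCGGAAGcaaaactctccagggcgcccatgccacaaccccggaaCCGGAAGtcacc
Mrpl2 to Klc4, chr17:46646081-46646220, plus strand, SP in capitals: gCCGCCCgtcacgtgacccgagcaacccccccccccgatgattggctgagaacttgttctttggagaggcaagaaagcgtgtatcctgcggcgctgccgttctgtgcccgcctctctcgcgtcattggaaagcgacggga
Mrpl46 to Mrps11, chr7:78783090-78783130, minus strand, SP in capitals: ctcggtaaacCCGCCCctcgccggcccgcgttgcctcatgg
Mrpl10, chr11:97041418-97041485, plus strand, NRF1 in capitals: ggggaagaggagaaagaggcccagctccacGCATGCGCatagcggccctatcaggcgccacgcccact

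These neighbours formed 25 pairs, of which 23 had both genes tested. The members and neighbours had the same sign of log2 fold change in 15 of the 23 pairs, and 7 neighbours were called higher and none lower, against the background of 11.5% and 11.6% of all genes. Mrps27 and Ptcd2, a pentatricopeptide repeat protein of mitochondrial RNA processing, start 108 bases apart and were called higher together, with log2 fold changes of 0.39 and 0.40 (edgeR adjusted p = 0.00442 and 0.0104). Ptcd2 was the only neighbour called together with its member.

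In other pairs 1 gene was called and its neighbour was not. Mrpl43 was lower (-0.32) while Twnk, the mitochondrial DNA helicase, whose start lies 116 bases away, had 0.10 (edgeR adjusted p = 0.5). Mrpl2 was lower (-0.52) and Klc4 had -0.28 (edgeR adjusted p = 0.0597), which missed the threshold. Mrps12 had 0.03 while Sars2, the mitochondrial seryl-tRNA synthetase that starts 147 bases away, was called higher (0.41, edgeR adjusted p = 0.0408). Mrpl46 and Mrps11, whose starts lie 42 bases apart, had 27.6, 31.0 and 27.3 CPM against 32.6, 33.9 and 31.1 CPM, and 24.8, 27.8 and 29.2 CPM against 27.6, 33.1 and 28.2 CPM. Neither was called (log2 fold changes 0.18 and 0.12), and their annotated spans overlap in the table.

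**Figure D5:**
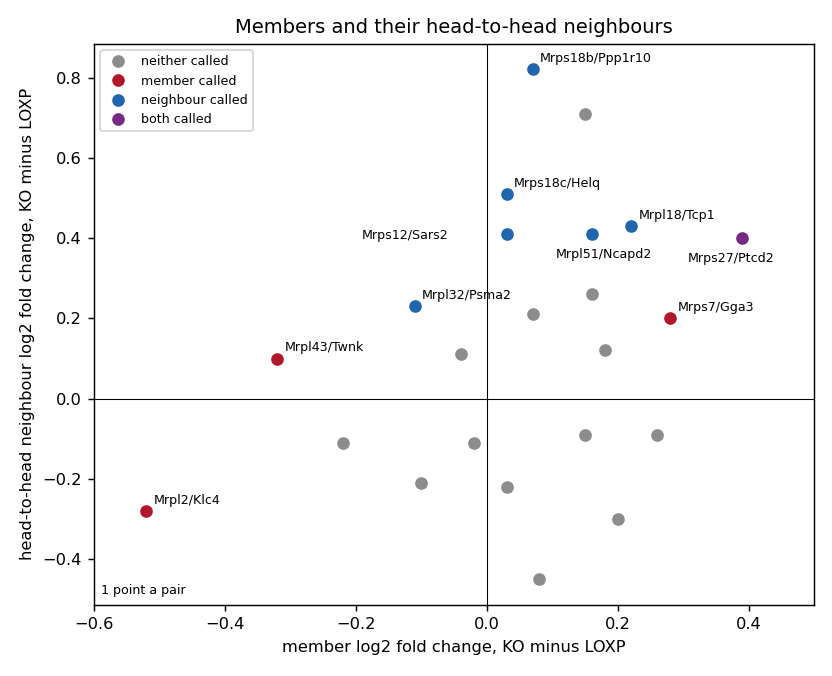
Log2 fold change, KO minus LOXP, of a member (x axis) against that of its head-to-head neighbour (y axis) for the 23 pairs with both genes tested (points), coloured by which gene was called, with Mrpl46 as the member of the pair it forms with Mrps11. Mrps27 and Ptcd2 are the pair with both genes called, 6 further neighbours were called higher, and 15 of 23 pairs lie in the quadrants of equal sign.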

How the data were processed

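Bulk RNA-seq of palmitate-treated primary hepatocytes was analysed from the gene table the authors deposited, which holds raw counts and FPKM per library for 57180 genes. Per the labels, libraries were made from total RNA with the VAHTS Universal V6 kit. The submitters' processing notes name fastp, HISAT2, StringTie, edgeR and build GRCm39; versions, the annotation release and the strand setting are not given in the sources used here. The deposited counts were tested with edgeR 4.0.16 (glmQLFit and glmQLFTest, two-sided, group as the only term, TMM factors, filterByExpr with a minimum count of 10) in R 4.3.3 over 14151 genes with Benjamini-Hochberg adjustment. The FPKM values, the authors' own, served for levels between genes and for limma 3.58.1 as an alternative. DESeq2 1.42.0 was another, and its adjusted p was NA for 8 genes. No column of the table was left without a sample (0 unmapped), and no pair of libraries of a group agreed within sampling noise.

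The symbol rule for members uses no measured value, but it and the lists were chosen with earlier results of these data known. Named members were the called ones with the smallest adjusted p (at most 10 in each direction, which took in all 8), the 3 largest changes in each direction, the 4 most and 2 least abundant of each subunit, and genes whose name and structure or role differ; of other lists, up to 3 called genes in each direction. Head-to-head neighbours were examined after the values were seen. The edgeR script was tested on simulated data. Of the 10 hepatocyte markers chosen, 9 matched a symbol in the table. Alternatives were other scalings, filters, tools and the removal of each library. Single values were also compared by exact permutation over the 6 libraries.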

Additional observations from a re-analysis of the deposited data

How the results depend on the processing

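Of 15 alternatives, Mrps27, Mrps18a, Mrps2, Mrpl43, mt-Rnr1 and mt-Rnr2 were called under each. The members called higher numbered 3, and 7 with library totals as the only scaling, 7 by limma on log2(FPKM + 1) and 7 on log2(FPKM + 0.1). There the median log2 fold change of members was 0.08 in place of 0.04 and that of all genes 0.02 to 0.03. FPKM is also scaled to library totals, so none of these settings used the TMM factors (0.973 to 0.999 in LOXP, 1.001 to 1.023 in KO). They are therefore not separate choices of scaling, and the cause was not tested. Leaving out 1 library gave 1 to 3 members called higher and 3 to 5 called lower: 1 higher without LOXP replicate 1, LOXP replicate 2 or KO replicate 2, and 3 lower without LOXP replicate 3, KO replicate 2 or KO replicate 3. Fewer libraries lower the power of the test. Mrps34 was also lost when every gene with a count was kept (edgeR adjusted p = 0.0622). The LOXP and KO libraries share replicate numbers, but nothing says that these mark a pairing: deviations from the group means of equal-numbered libraries correlated at 0.12, 0.0834 and 0.0134 across genes, and 5 of the 6 libraries correlated best with their own number. With a replicate block 5 members were called lower and 4 higher. With 3 libraries a group, the median SE of 0.09 limited which members could be called.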
